A study of Homo sapiens with 5 samples.

Results

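The genes described here encode the parts of the HLA class I antigen presentation machinery that the array table held. They were 8 genes, HLA-B, HLA-C, HLA-E, HLA-F, HLA-G, B2M, TAP1 and TAPBP, measured by 10 probes among the 14747 probes and 9268 named genes of the table. They were chosen by gene name, with low values of HLA-F and HLA-B in the pull-down already known. Every gene on that list had at least 1 probe, and no member was dropped for a low value. The measurements came from LX-2 cells, an established human hepatic stellate cell line. Cells were transfected with 50 pmol of a biotin-labelled miR-25-3p duplex, which the labels write as miR-25a-3p, and harvested after 24 h. Bead-captured RNA (pull-down, n = 3 arrays) was compared with RNA labelled as whole cell lysate controls (n = 2 arrays) on Illumina HT-12 expression arrays, to find messages bound by the microRNA. Both groups were transfected with the same duplex, the study used 1 cell line, and neither untransfected cells nor a pull-down with a control duplex was analysed here. The study's methods describe the control as total lysate set aside before capture, whereas the extraction text in the labels of the control samples repeats the bead step. A further control array, excluded by the study for low signal, was not analysed here.

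Class I molecules carry short peptides from inside the cell to its surface, where cytotoxic T cells and natural killer cells read them. Each molecule pairs a membrane-bound heavy chain, encoded by an HLA gene, with the light chain β2-microglobulin. Peptides cut by the proteasome are pumped into the endoplasmic reticulum by the TAP transporter, and tapasin holds the empty molecule close to that pump until a peptide is bound. Most nucleated cells express the classical heavy chains, and interferons raise their transcription through shared promoter elements.

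The captured microRNA is shown first because the pull-down rests on its pairing with messages. It is written 5′ to 3′ from RefSeq (GRCh38.p14, chr7:100093571-100093592, minus strand), with the seed, bases 2 to 8, in capitals.
hsa-miR-25-3p: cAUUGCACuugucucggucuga
Sequences of the array probes and of the messages were not used here, so pairing of this seed with the class I messages was not examined.

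The upstream regions of 5 members are shown because these genes share promoter elements. RefSeq (GRCh38.p14) promoter windows matched 7 of the 8 genes, all but HLA-E, with 10 windows in all, and the 250 bases before the annotated start are printed 5′ to 3′ on the gene's strand. Capitals mark 3 motifs searched on both strands: TTTCNNTT, the core of the interferon-stimulated response element; a kappa-B-like sequence (GGG, any 2 bases, TT, any 1 base, CC); and CCAAT. No match of a motif overlapped one of a different motif; paired matches of TTTCNNTT overlapped each other in B2M, TAP1 and TAPBP.
HLA-B (chr6:31357180-31357429, minus strand): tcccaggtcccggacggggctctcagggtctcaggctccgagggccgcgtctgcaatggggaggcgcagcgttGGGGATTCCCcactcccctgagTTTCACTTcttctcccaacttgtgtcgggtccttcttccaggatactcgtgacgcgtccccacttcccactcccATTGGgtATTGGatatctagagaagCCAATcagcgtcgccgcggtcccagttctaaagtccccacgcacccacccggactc
HLA-C (chr6:31272093-31272342, minus strand): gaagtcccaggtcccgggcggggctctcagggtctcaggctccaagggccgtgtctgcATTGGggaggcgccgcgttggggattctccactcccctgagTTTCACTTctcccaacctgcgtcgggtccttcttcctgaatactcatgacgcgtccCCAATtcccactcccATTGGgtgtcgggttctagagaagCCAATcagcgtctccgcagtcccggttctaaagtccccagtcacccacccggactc
HLA-F (chr6:29723184-29723433, plus strand): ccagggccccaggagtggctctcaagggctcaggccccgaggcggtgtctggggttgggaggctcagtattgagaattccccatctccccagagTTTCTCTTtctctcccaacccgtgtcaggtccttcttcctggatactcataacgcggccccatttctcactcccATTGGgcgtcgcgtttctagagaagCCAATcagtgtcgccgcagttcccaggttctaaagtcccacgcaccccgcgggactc
HLA-G (chr6:29827575-29827824, plus strand): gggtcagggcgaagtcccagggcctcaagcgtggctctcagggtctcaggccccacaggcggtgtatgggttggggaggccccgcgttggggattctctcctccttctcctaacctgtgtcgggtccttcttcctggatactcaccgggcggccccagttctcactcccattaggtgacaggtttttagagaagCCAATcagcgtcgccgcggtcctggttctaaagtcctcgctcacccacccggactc
B2M (chr15:44711267-44711516, plus strand): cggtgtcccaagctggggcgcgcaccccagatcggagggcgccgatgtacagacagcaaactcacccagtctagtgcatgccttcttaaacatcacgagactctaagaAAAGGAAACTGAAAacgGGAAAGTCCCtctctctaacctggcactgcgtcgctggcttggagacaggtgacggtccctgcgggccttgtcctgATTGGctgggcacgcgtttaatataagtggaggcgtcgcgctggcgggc

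The HLA-B and HLA-C windows were 89.0% identical, and that of HLA-F was 80.4% identical to HLA-B. The HLA-G window printed, 1 of 3 for that gene, shared 73.2% of its aligned bases with HLA-B, whereas B2M shared 49.5%. The HLA-G windows not printed shared 46.3% and 46.9% with HLA-B and held no motif match. Pairs without an HLA gene gave similar values, such as 48.5% for B2M and TAPBP, so a share of this size is not read as likeness. TTTCNNTT stood at almost the same distance before the start in HLA-B (-155), HLA-C (-151) and HLA-F (-156), and was not in the HLA-G windows. It also occurred in B2M (-142 and -136), in 1 of the 2 TAP1 windows (-134 and -128) and in TAPBP (-18 and -12), so that 6 of the 7 genes held it, as did 20.3% of 35116 human promoter windows of the same length. The kappa-B-like sequence was found in HLA-B (-177), B2M (-125), TAP1 (-72) and TAPBP (-56), against 5.07% of all windows, and CCAAT in 6 of the 7 genes, against 32.0%. These are matches of letters, chosen with the sequences in view, and they do not show that a factor binds there. The member counts are of genes with a match in any of their windows, whereas the percentages are of single windows. Counts and percentages are therefore not on the same basis, and a gene with several windows has more chances of a match.

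The deposited values were on a log2 or log2-like scale, running from 7.57 to 14.76 over the table, with array medians between 9.01 and 9.03. Depth has no equivalent here, and the small number of arrays limits the precision. A fold change is therefore on that scale, and may understate a change in a dim probe. On the values as labelled, the members were mostly lower in the pull-down. This direction is opposite to the study's reading of its picked genes as enriched, since all 6 of those genes (NOTCH2NL, FKBP14, PTGR2, IL10, LEP and ADAM17) were also lower in the arrays titled as pull-down. The study's own text differs on the sign: its volcano plot caption gives a negative fold change cut-off for pull-down against lysate, and its methods a positive one. Whether the study's comparison was coded as control minus pull-down or the titles are exchanged is not known. If the titles are exchanged, every sign and rank given here turns, and each count and share of lower probes becomes the same count and share of higher ones. All arrays were scaled alike, so a value is relative to the other messages on its array. By the methods, lysate was drawn from the transfected cells before capture, so a difference is between captured and total RNA and does not measure message per cell.

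Of the 10 member probes, 9 had a lower mean in the pull-down, against 45.4% of all probes. A difference of at least 2-fold was seen in 4 probes, of HLA-B, HLA-C, HLA-E and HLA-F, against 3.8% of all probes, and all 4 were lower. The median log2 difference (pull-down minus lysate) was -0.45 over the members and 0.04 over all probes. Benjamini-Hochberg adjusted p below 0.05 in limma, the call used for every gene here, was met by 2 member probes, of HLA-C and HLA-F, both lower, against 7.09% of all probes called lower and 14.7% called in either direction. The pull-down and lysate arrays did not overlap for 6 of the 10, all lower, against 22.4% of all probes. Because the choice of genes used this comparison, these counts are descriptions and carry no test. The same holds wherever a member probe is said below to meet or miss the threshold.

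**Figure D1:**
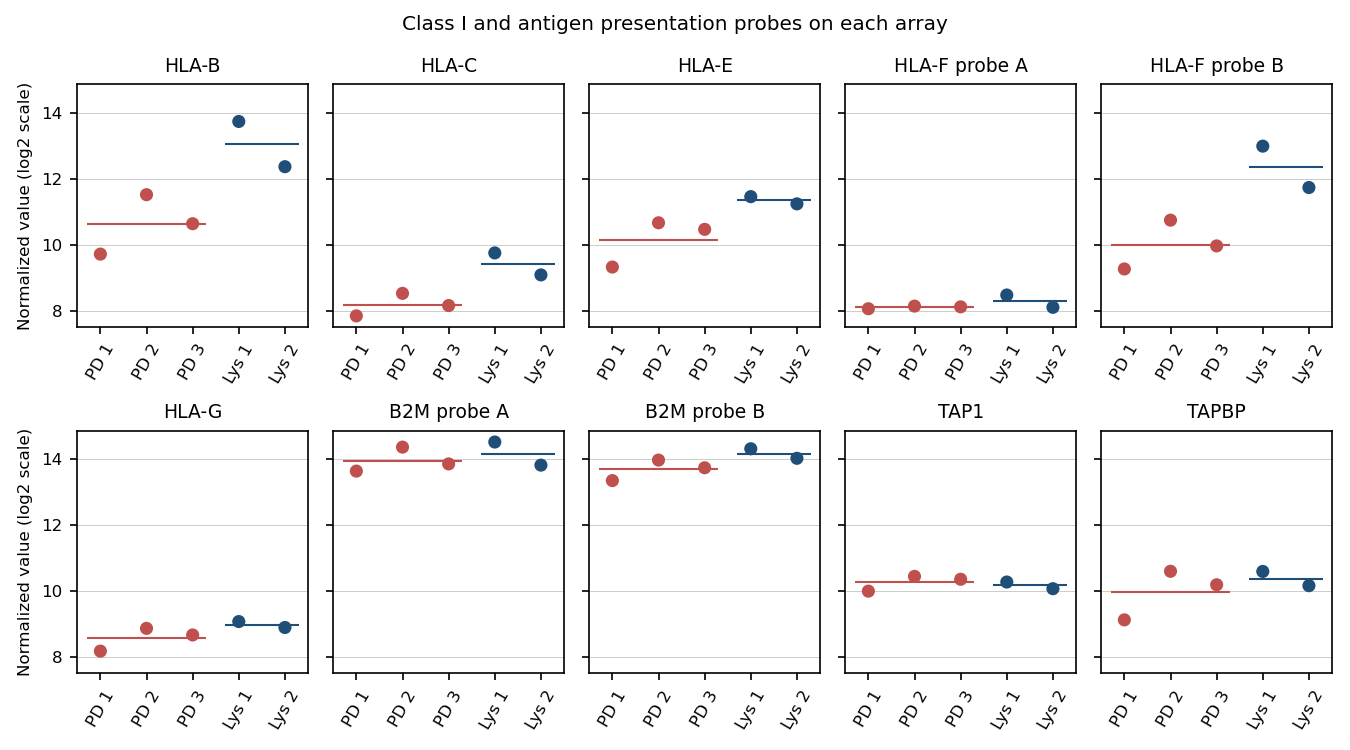
Normalised values (log2 scale, vertical axis) of the 10 member probes on the 3 pull-down and 2 lysate arrays, each point an array and each bar a group mean. HLA-B and HLA-F probe B show the widest gaps, with lysate arrays at 11.73 or above and pull-down arrays at 11.52 or below, whereas the arrays of TAP1, TAPBP, B2M probe A and HLA-F probe A overlap.

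HLA-B, a classical heavy chain that presents peptides to cytotoxic T cells (probe ILMN_1778401), read 9.72, 11.52 and 10.64 in the 3 pull-down arrays and 13.73 and 12.36 in the lysate arrays. All pull-down arrays lay below both lysate arrays, with 0.85 between the nearest pair, but each group was itself spread widely. The mean of 10.62 ± 0.90 (SD, n = 3) for captured RNA compared with 13.05 ± 0.97 (SD, n = 2) for lysate, a log2 difference of -2.42 (SE 0.62), or 5.36-fold lower. This was the 7th lowest difference of the 14747 probes with the titles as given, the 7th highest with them exchanged, and it did not meet the adjusted p threshold in limma. Without lysate 1 the log2 difference was -1.74, and without lysate 2 it was -3.11.

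HLA-C, a classical heavy chain that is also a main ligand of natural killer cell receptors (ILMN_1721113), read 7.85, 8.53 and 8.16 in the pull-down and 9.75 and 9.09 in lysate. The groups were separated by 0.56. The log2 difference was -1.24 (SE 0.28), or 2.36-fold lower, from 8.18 ± 0.34 (SD, n = 3) against 9.42 ± 0.47 (SD, n = 2). HLA-C met the threshold with all 5 arrays and in none of the fits that left out 1 array.

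HLA-E is a nonclassical heavy chain that presents leader peptides of other class I chains to natural killer cells. Its probe (ILMN_1765258) read 9.33, 10.67 and 10.47 in the pull-down and 11.46 and 11.24 in lysate. Pull-down 1 was far below the other pull-down arrays, while the lysate arrays were close together. The log2 difference was -1.19 (SE 0.41), from 10.15 ± 0.72 (SD, n = 3) against 11.35 ± 0.15 (SD, n = 2). HLA-E was the member just inside a 2-fold difference, at 2.29-fold lower, and the next, B2M probe B, was outside it at 1.40-fold lower. Without pull-down 1 the log2 difference of HLA-E was -0.78, and only in that fit did it meet the threshold.

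HLA-F, a nonclassical heavy chain found partly without peptide and recognised by natural killer cell receptors, was measured by 2 probes annotated to different transcripts, and these did not behave alike. Probe B (ILMN_2186806) read 9.27, 10.75 and 9.97 in the pull-down and 12.98 and 11.73 in lysate, leaving 0.99 between the groups. Its log2 difference was -2.37 (SE 0.53), or 5.15-fold lower, from 9.99 ± 0.74 (SD, n = 3) against 12.36 ± 0.89 (SD, n = 2), the 11th lowest of all probes. It met the threshold with all 5 arrays but in none of the fits without 1 array, among which its log2 difference ran from -2.99 without lysate 2 to -1.74 without lysate 1. Probe A (ILMN_1762861) read 8.07, 8.15 and 8.12 in the pull-down and 8.48 and 8.11 in lysate, so that the groups overlapped. The difference of probe A was -0.18 (SE 0.14) on the log2 scale, with 0.00314 without lysate 1 and -0.37 without lysate 2. Its values were close to the low end of the table, where little range is left below.

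HLA-G, a nonclassical heavy chain best known from the placenta as an inhibitory ligand (ILMN_1656670), read 8.19, 8.88 and 8.68 in the pull-down and 9.08 and 8.90 in lysate. The groups were separated by 0.03, less than the spread within either. The log2 difference was -0.41 (SE 0.22), from 8.58 ± 0.35 (SD, n = 3) against 8.99 ± 0.13 (SD, n = 2).

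B2M, the light chain common to all of these heavy chains, had 2 probes near the bright end of the scale, where the array maxima were 14.57 to 14.76. Probe A (ILMN_1725427) read 13.64, 14.36 and 13.85 in the pull-down and 14.52 and 13.82 in lysate. Its groups overlapped, with a log2 difference of -0.22 (SE 0.29) that turned to 0.13 without lysate 1 and was -0.57 without lysate 2. Probe B (ILMN_2148459) read 13.35, 13.97 and 13.74 against 14.31 and 14.02. These groups were 0.05 apart, and the log2 difference was -0.48 (SE 0.21). The light chain thus differed less between the groups than HLA-B did, by the measured values of both its probes, but this contrast between probes was not tested, and brightness close to the maximum leaves little range above.

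TAP1, a subunit of the peptide transporter (ILMN_1751079), was the only member with a higher mean in the pull-down. It read 10.005, 10.45 and 10.36 in the pull-down and 10.28 and 10.08 in lysate, and the groups overlapped. The log2 difference was 0.09 (SE 0.17), and ranged from -0.01 to 0.23 when 1 array was left out. TAPBP, which encodes tapasin (ILMN_1742450), read 9.14, 10.61 and 10.20 against 10.60 and 10.17. Pull-down 2 was level with the higher lysate array and pull-down 1 was far below all others. The log2 difference of TAPBP was -0.41 (SE 0.44) with all arrays and 0.02 without pull-down 1.

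**Figure D2:**
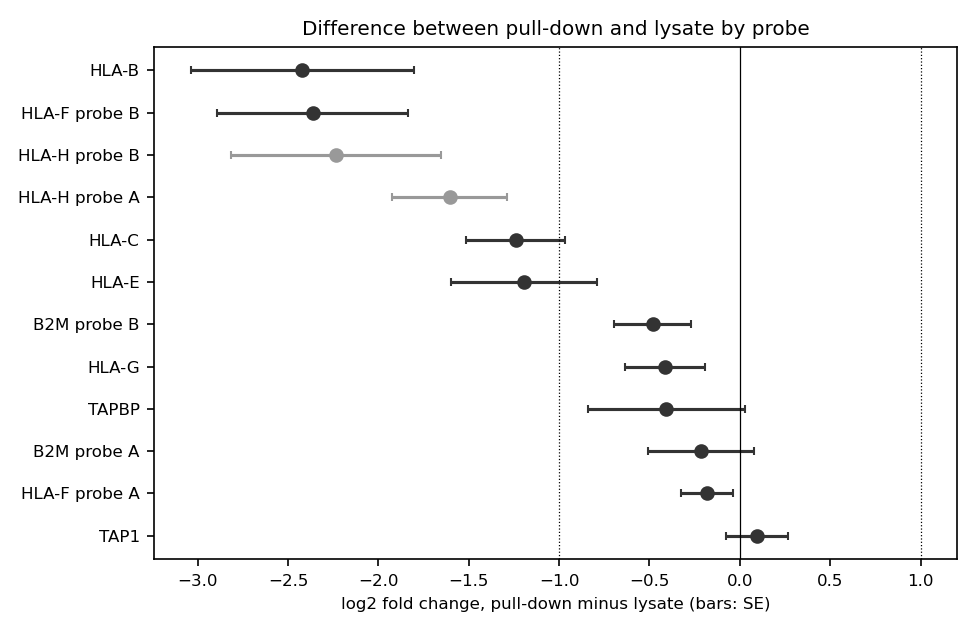
Log2 difference between pull-down and lysate (horizontal axis, pull-down minus lysate) for each member probe and, in grey, both probes of the pseudogene HLA-H, which is not a member. Bars are 1 SE from limma. HLA-B (-2.42), HLA-F probe B (-2.37) and HLA-H probe B (-2.23) lie far to the left. HLA-H probe A (-1.61), HLA-C (-1.24) and HLA-E (-1.19) lie past a 2-fold difference, and TAP1 (0.09) lies at the other end.

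The heavy chain probes were then compared with one another, as near-identical genes can share array signal. Each probe was centred on its own mean, and the root mean square difference between a pair of probes was taken over the 5 arrays. This measure counts the size of a change as well as its course, and includes the difference between pull-down and lysate for which HLA-B and HLA-F were chosen, so it is a description. HLA-B differed from HLA-F probe B by 0.114, and both were closest of all to a probe of HLA-H, a transcribed pseudogene of the class I cluster, at 0.104 for HLA-B and 0.0974 for HLA-F probe B. The nearest gene outside the class I cluster was FOXRED2, at 0.315 from HLA-B and 0.313 from HLA-F probe B. Those were the 3 nearest genes to each.

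The remaining heavy chain probes lay farther from HLA-B, in part because their values moved over a smaller range. HLA-C ran through the arrays in the same order as HLA-B but from -0.83 in pull-down 1 to 1.08 in lysate 1 after centring, against -1.88 to 2.14 for HLA-B. HLA-C was 0.714 from HLA-B, HLA-E was 0.736 and HLA-G was 1.11. HLA-F probe A was 1.19 from HLA-F probe B, although both are annotated to HLA-F. HLA-C lay closest within the class I probes to the other HLA-H probe, probe A, at 0.199. HLA-H probe B (ILMN_2130441) read 9.98, 11.69 and 10.81 in the pull-down and 13.69 and 12.43 in lysate, for a log2 difference of -2.23, and probe A (ILMN_1666078) gave -1.61. Whether these probes bind one another's messages was not tested, and their values should be read as uncertain for any single gene.

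**Figure D3:**
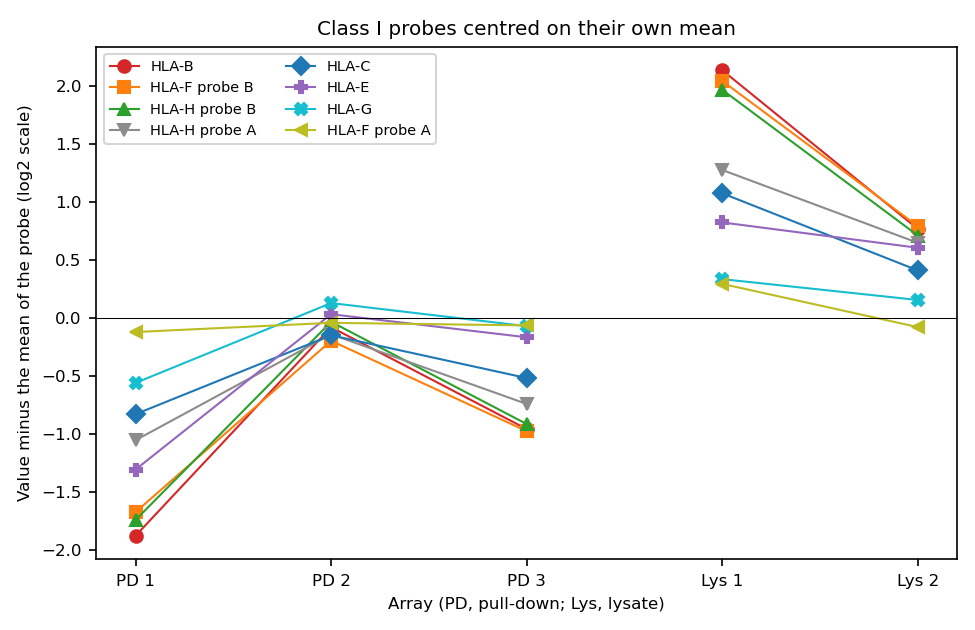
Values of the class I heavy chain probes and both HLA-H probes on the 5 arrays, each centred on its own mean (log2 scale, vertical axis). The lines of HLA-B, HLA-F probe B and HLA-H probe B nearly coincide, from -1.88, -1.67 and -1.74 in pull-down 1 to 2.14, 2.05 and 1.97 in lysate 1, whereas HLA-F probe A is almost flat.

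Spread within the groups was wide for several members. It is not independent of how the genes were chosen, since with so few arrays a large difference is reached more readily by a probe that varies widely, and it is given as a description. The SD over the 3 pull-down arrays had a median of 0.36 among member probes and 0.17 among all probes. It was above the 90th percentile of all probes (0.41) for HLA-B, HLA-E, HLA-F probe B and TAPBP. Such spread was not particular to the members. Among 11 stellate cell markers, described below, the median SD was 0.54 and 8 were above that percentile. Among 33 interferon-induced genes the median SD was 0.37 and 11 were above it. The 2 lysate arrays differed by a median of 0.40 for member probes and 0.16 for all probes. That difference was above the 90th percentile (0.50) for HLA-B (1.37), HLA-F probe B (1.25), B2M probe A (0.70) and HLA-C (0.66). HLA-F probe A was at the other end, with a pull-down SD of 0.04 at the 6.22 percentile of all probes.

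The members also shared 1 arrangement of the arrays, which was looked for after their values had been seen. In all 10 probes pull-down 1 was the lowest and pull-down 2 the highest of the pull-down arrays, and lysate 1 was above lysate 2. The same arrangement held for 12.3% of all probes, its pull-down part alone for 17.6% and its lysate part alone for 49.7%. The members are not independent, since several heavy chain probes may read overlapping messages, and no test was made. Stellate cell markers moved in part the same way: 7 of the 11 measured had this arrangement, against 12.8% of named genes. COL1A1, the main fibrillar collagen chain of activated stellate cells, was the 4th nearest gene name to HLA-B by centred values, at 0.472, and read 8.87, 11.53 and 10.13 in the pull-down and 12.57 and 11.07 in lysate. The mean log2 value of the 11 stellate markers was 10.24 to 11.19 in the pull-down arrays and 11.00 to 11.38 in lysate. A log2 difference at least 2-fold lower was measured for 3 of the 11, COL1A1 (-1.64), SERPINH1 (-1.44) and SPARC (-1.03), against 3.8% of all probes. Pull-down and lysate arrays overlapped for 9 of the 11, COL1A1 and SPARC among them. By any amount 7 of the 11 were lower, with a median log2 difference of -0.23, whereas ACTA2 (0.22), VIM (0.18), COL3A1 (0.12) and COL1A2 (0.04) were higher. The part of these markers in the class I values was not tested.

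**Figure D4:**
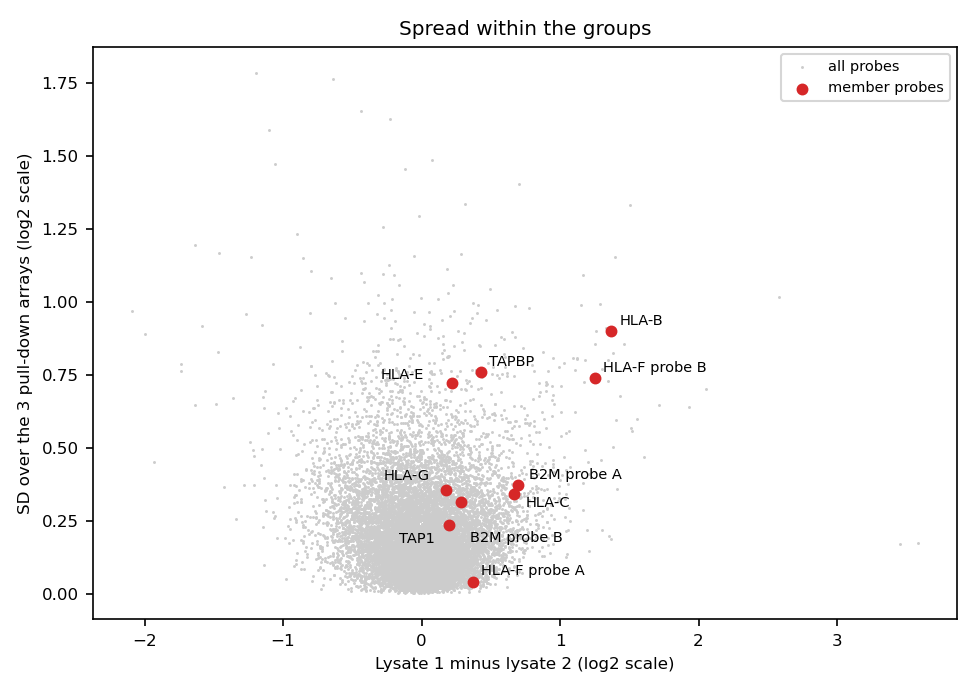
SD over the 3 pull-down arrays (vertical axis, log2 scale) against lysate 1 minus lysate 2 (horizontal axis, log2 scale) for all probes (grey) and the member probes (red). All 10 member probes lie to the right of 0, and HLA-B (SD 0.90, difference 1.37) and HLA-F probe B (SD 0.74, difference 1.25) lie far from the bulk of the probes.

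Most markers of the labelled cell type were measured, and markers of other cells mostly had no probe in the table. VIM, a filament protein of mesenchymal cells, read 14.05 to 14.33, and ACTA2, the smooth muscle actin of myofibroblasts, read 9.89 to 11.06. Other stellate markers read close to the low end of the table, PDGFRB at 7.96 to 8.67 and COL1A2 at 7.88 to 8.95. Of 12 stellate markers, DES had no named probe, and none of the 11 others was called in limma by the probe used (1 was below an unadjusted p of 0.05), though a second TAGLN probe was called lower, at a log2 difference of -1.12 (limma adjusted p = 0.0448). Among 8 leukocyte markers only CD14 (7.99 to 8.26) and CD68 (10.46 to 12.25) had a named probe. Of 6 hepatocyte markers only ALB (8.17 to 9.23) and SERPINA1 (7.79 to 7.87) had one, and none of 4 endothelial markers did. The table holds only probes that the authors kept, so a marker that is missing from it has no value rather than a value of 0.

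Genes that prepare and load peptides mostly did not pass the test. Of 17 such genes 14 were measured, by 1 probe each, and 1 was called lower and none higher, against 6.72% and 7.1% of named genes (13.8% in either direction). An unadjusted p below 0.05 in limma was reached by 3 of the 14, against 30.6% of named genes. That gene was PSME3, a proteasome activator subunit of the nucleus that interferon does not induce, and it read 10.40, 10.33 and 10.31 in the pull-down and 11.64 and 11.52 in lysate. The arrays of each group were close together and the groups well apart, at a log2 difference of -1.23 (SE 0.11, limma adjusted p = 0.00815). Its second probe also fell, by 1.12 on the log2 scale (limma adjusted p = 0.0271). PSME3 lost the call when either lysate array was left out, with limma adjusted p of up to 0.0794.

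CALR, the chaperone calreticulin of the loading complex, had almost the same log2 difference (-1.21) but a wide pull-down spread, at 9.92, 11.18 and 11.42 against 12.01 and 12.09 in lysate, and was not called (limma adjusted p = 0.128). The highest genes of this list were PSMB9, an immunoproteasome subunit, at a log2 difference of 0.44 (limma adjusted p = 0.202), and the cytosolic peptidase NPEPPS at 0.42 (limma adjusted p = 0.292). The list had a median log2 difference of -0.11. The 5 interferon-inducible proteasome genes in it, PSMB8, PSMB9, PSMB10, PSME1 and PSME2, were picked out after their values were seen. All 5 were lowest in pull-down 3, as were 32.7% of named genes, and not in pull-down 1 as the class I members were.

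Among other class I and class I-like genes, 8 of 25 were measured and 3 were called, all lower, against 6.72% of named genes called lower. An unadjusted p below 0.05 in limma was reached by 5 of the 8, against 30.6% of named genes. The 3 genes encode stress ligands of NKG2D, an activating receptor of natural killer cells. ULBP2 read 8.57, 9.09 and 8.99 in the pull-down and 10.54 and 10.37 in lysate, and fell by 1.57 on the log2 scale (SE 0.19, limma adjusted p = 0.0113). MICB read 9.53, 9.23 and 9.33 against 10.21 and 9.93, a log2 difference of -0.71 (SE 0.15, limma adjusted p = 0.0343). ULBP1 read 7.96, 7.92 and 7.87 against 8.40 and 8.35, a log2 difference of -0.45 (SE 0.11, limma adjusted p = 0.0422).

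For all 3 ligands every pull-down array was below both lysate arrays. Leaving out either lysate array ended the call for each of them, with limma adjusted p of up to 0.0889 for ULBP2, 0.202 for MICB and 0.223 for ULBP1, and MICB and ULBP1 were also lost without pull-down 2 or pull-down 3. HLA-H, by its brighter probe B, had the lowest log2 difference of the list and was not called (limma adjusted p = 0.0562), whereas its probe A was (limma adjusted p = 0.0289). The other genes lower by most were the noncoding gene HCG4, at -0.74 on the log2 scale, and MICA, at -0.35 (limma adjusted p = 0.101). PROCR, the endothelial protein C receptor, at 0.37, and FCGRT, the heavy chain of the neonatal Fc receptor, at 0.21, were the highest, and neither was called. The median log2 difference of the 8 was -0.58.

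**Figure D5:**
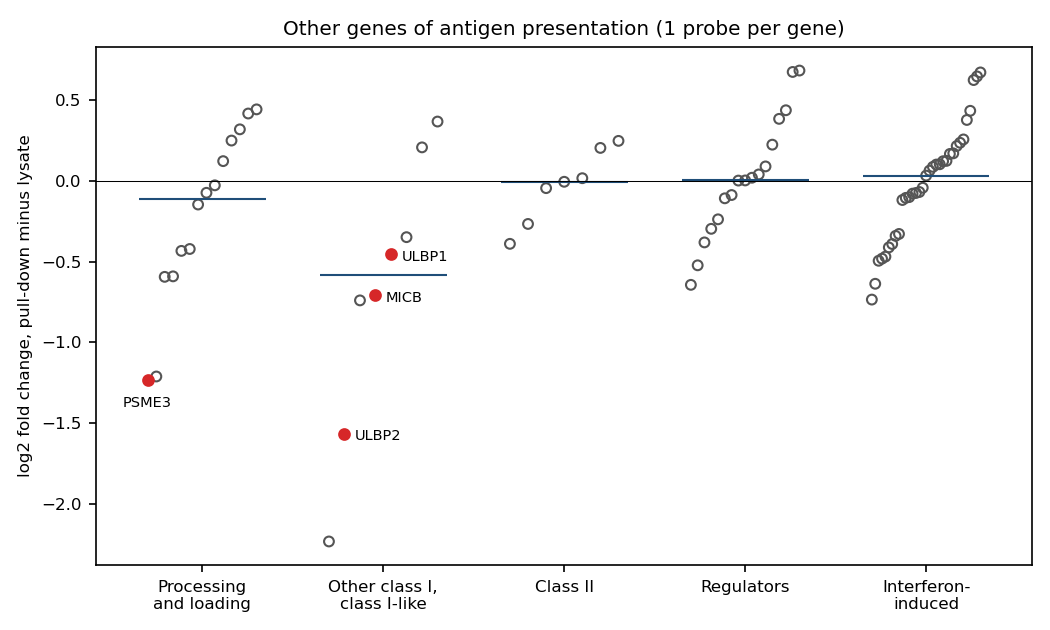
Log2 difference between pull-down and lysate (vertical axis) for the measured genes of 5 related lists, each point a gene by 1 probe, red where limma's adjusted p was below 0.05, with lines at the list medians. The called genes are PSME3 (-1.23), ULBP2 (-1.57), MICB (-0.71) and ULBP1 (-0.45), and the lowest open point is HLA-H (-2.23).

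Class II presentation genes, which serve the display of extracellular peptides to helper T cells, showed no called gene among 7 measured of 22, against 13.8% of named genes, and none at an unadjusted p below 0.05 in limma, against 30.6%. Their median log2 difference was -0.00494. The extremes were the lysosomal proteases CTSL (-0.39) and CTSB (-0.27) at the low end, and the class II chains HLA-DPA1 (0.25) and HLA-DRB3 (0.20) at the high end. A dimmer CTSL probe was at -0.55 without overlap of the groups (limma unadjusted p = 0.0171) and was not called (limma adjusted p = 0.0806). Another CTSL probe was at -0.32 with the groups overlapping. HLA-DRB3 has near-identical copies and is uncertain as a single gene. CD74 and CIITA, the invariant chain and the class II transactivator, had no named probe.

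Of 23 transcriptional regulators of these genes 17 were measured and none was called, against 13.8% of named genes, with 3 below an unadjusted p of 0.05 in limma, against 30.6%. Their median log2 difference was 0.00335. NFKB1, a kappa-B-binding subunit, and IRF1, an activator that binds the interferon-stimulated response element, were highest, each at 0.68 (limma adjusted p = 0.148 and 0.293). CREB1 (-0.64) and USF2 (-0.52) were lowest. A second CREB1 probe had a log2 difference of -1.86 without overlap of the groups and was not called (limma adjusted p = 0.0953), and a second, dimmer USF2 probe was called lower, at -0.76 (limma adjusted p = 0.0283). NFKB1 was called without pull-down 3, at a log2 difference of 0.94 (limma adjusted p = 0.0415).

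Interferon-induced genes were examined because the class I genes are among the messages that interferon raises. Of 42 listed 33 were measured and none was called in limma, against 13.8% of named genes. An unadjusted p below 0.05 in limma was reached by 3, against 30.6% of named genes, and the median log2 difference was 0.03. The median pull-down SD of these genes was 0.37, against 0.17 over all probes. A difference is called less readily at such spread, so the lack of calls does not show that these genes were unchanged. The antiviral gene IFIT3 (-0.74, limma adjusted p = 0.0750) and the nuclear body gene SP110 (-0.64) were lowest by the probes used. These values depended on the probe. A second, dimmer IFIT3 probe was at 0.09 with the groups overlapping, and the other SP110 probes were at -0.89 and -0.95 without overlap and were not called. The ISG15 ligase HERC5 (0.67, limma adjusted p = 0.0835) and the exonuclease ISG20 (0.65) were highest.

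Their arrangement of the arrays was in part that of the class I members and in part not. All 33 read higher in lysate 1 than in lysate 2, against 52.1% of named genes, with a median difference of 0.58 on the log2 scale, and all 10 member probes did so too. In the pull-down, 27 of the 33 were lowest in pull-down 3, whereas every member probe was lowest in pull-down 1. The full arrangement of the members was met by 6 of the 33, against 12.8% of named genes. The mean log2 value of the 33 genes was 9.39, 9.73 and 9.11 in the pull-down arrays and 9.74 and 9.11 in lysate. These patterns were seen after the values were known, and their part in the class I differences was not tested.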

How the data were processed

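Values of 5 Illumina HT-12 arrays were used as deposited. The authors exported them from GenomeStudio, normalised them with lumi and deposited them on a log2 or log2-like scale. Tool versions, and whether lumi's variance-stabilising form was applied, are not stated in the sources read. The table of non-normalised signals was left out, since the names of its 10 per-sample columns match no label. Titles gave each array's group and replicate number, and the methods speak of independent biological replicates. GEO's platform annotation gave 11970 probes 1 symbol, 1 probe several and 2776 probes none.

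Pull-down and lysate were compared over all 14747 probes with limma 3.58.1 (R 4.3.3), using lmFit and eBayes, two-sided, with Benjamini-Hochberg adjustment and no covariates. An exact permutation test of 3 against 2 arrays cannot go below p = 0.1. In a simulation of this comparison on 14747 probes, the fit recovered 80 of 100 probes with a 2-fold change and 100 of 100 with a log2 change of 2, and made 4 false calls. The simulated noise was drawn independently for each probe, with the fitted variances taken as true. It therefore checks the code and leaves out variation that many probes of an array share, so these rates do not measure the reliability of the calls reported here. For each gene outside the members, its brightest probe on average was used. Named were all member probes, the called genes and the 2 highest and 2 lowest genes of each other list, and the 3 genes nearest to HLA-B and HLA-F; any other gene named was chosen after its values were seen. The members and lists were chosen with earlier results of these data known. Alternatives were other scaling, a filter on dim probes, another eBayes prior, averaged probes, a replicate block and leaving out each array.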

Additional observations from a re-analysis of the deposited data

How the results depend on the processing

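The median log2 difference of the members stayed negative in every alternative, between -0.80 (probes of a gene averaged) and -0.44, and between -0.67 and -0.26 with 1 array left out. The number of members at least 2-fold lower was 4 in all settings but some of those with 1 array left out (3 to 4). Calls were less stable. Over all probes limma called 2172, and 0 without lysate 1 (2958 at an unadjusted p below 0.05) to 2389 without pull-down 1, with 387 without pull-down 2, 912 without pull-down 3 and 91 without lysate 2. With 1 array left out, the calls were 0 to 1 among member probes (HLA-E, without pull-down 1), 0 to 2 among processing genes (with CALR, without pull-down 1), 0 to 4 among other class I genes (with PROCR, higher, without pull-down 1), 0 to 1 among regulators (NFKB1, without pull-down 3) and 0 among class II and interferon-induced genes. Fewer arrays leave fewer degrees of freedom.

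Averaging the probes of a gene left 1 member called (HLA-C). ULBP1 and the member probe HLA-F probe A were among the dim probes left out by the filter on dim probes. The member median in that setting (-0.48) is therefore without HLA-F probe A, whose difference was small. The intensity trend with a robust prior called 1 regulator (RELB, limma adjusted p = 0.0493) and 1 interferon-induced gene (IFIT3, limma adjusted p = 0.0462). HLA-H probe B, not called in the main fit, was called with the trend (limma adjusted p = 0.0201) and with the dimmest probes left out (limma adjusted p = 0.0261). Of the other class I genes, 4 were called with the trend and 4 with probes averaged. HLA-B was called after cyclic loess, with the dimmest probes left out, and with the trend, so that 3 member probes were called in each. Since this comparison was used to choose the members, their calls are descriptions and carry no test. Member spread (0.37 after either rescaling), the shared arrangement (10 of 10) and the interferon-induced genes higher in lysate 1 (33 of 33) changed little or not at all after rescaling. Starting from non-normalised signals was not run, because the columns match no sample. The counts of members called and at least 2-fold lower, the arrangement counts, and spread at a common median were added after seeing the data.

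The replicate number as a block left 1 residual degree of freedom and reduced the calls to 215 over all probes and to 0 among member probes, processing genes and other class I genes. The numbers are not shown to pair the samples: deviations from the group means correlated at 0.04 for number 1 and -0.43 for number 2, and at 0.48 for pull-down 3 with lysate 2.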
